A study of Mus musculus with 6 samples.

Results

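The chemokines and chemokine receptors of the mouse were followed in 6 RNA-seq libraries, 3 from the luminal layer of the uterus and 3 from blastocysts, all collected at 8 pm on day 4 of pregnancy, before embryo attachment. Members were every row of the count tables whose symbol was that of a Cxcl, Ccl, Cxcr, Ccr or Ccrl gene with its number, together with *Cx3cl1*, *Cx3cr1*, *Xcl1* and *Xcr1*. The atypical receptors *Ackr2*, *Ackr3* and *Ackr4* were sought too, but had no row under these symbols. This gave 59 rows of 23420 genes, 38 of them ligands and 21 receptors. Of these, 2 were listed under an older symbol, *Cxcr7* (now *Ackr3*) and *Ccrl1* (now *Ackr4*). *Ackr2* stood in the tables as *Ccbp2* and was not reached by the rule. The control mothers were Lif-floxed/floxed and received PBS. The *Lif* eKO mothers were Lif-floxed/floxed Ltf-Cre/+, designed to lose *Lif* (leukemia inhibitory factor, a cytokine needed for implantation) where Cre was active. They received PBS, or 2 injections of recombinant Lif (rLif) on day 4, each of 20 µg per head. These were given at 10 am and at 6 pm, the second being 2 h ahead of dissection. The embryos of all 3 groups were Lif-floxed/+. Cre was driven by the lactoferrin gene *Ltf*, which is expressed in the uterine epithelium, so that the stroma was not targeted. Each group was 1 library, made from pooled RNA of several microdissected uteri or from pooled blastocysts. No comparison therefore had a replicate check, and no p-value is given.

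Chemokines are small secreted proteins that direct the movement of leukocytes. They are sorted by the spacing of their first cysteines into CXC, CC, CX3C and XC ligands, and they act on G protein-coupled receptors named by the same classes. CXC ligands with a Glu-Leu-Arg (ELR) motif attract neutrophils through CXCR2, while CXCL9, CXCL10 and CXCL11 are induced by interferons and attract T and NK cells through CXCR3. Atypical receptors bind chemokines without G protein signalling and remove or relocate them. In the uterus around implantation, chemokines of epithelium and stroma are known to guide macrophages, uterine NK cells and other leukocytes.

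The promoters of 5 ligands on which the results below turn are shown first, because transcription factors of cytokine signalling are known to act through such stretches. These 5 were chosen with the results known, and each holds a match to a motif named next. A set of 3 motifs were searched on both strands of the 250 bases before each transcript start in RefSeq (GRCm38.p6). They were TTCNNNGAA, which Stat factors bind, a form of the NF-kB motif (GGGAA and CC parted by any 3 bases), and the core of the interferon response element (2 copies of GAAA parted by any 2 bases). Promoter entries were found for 43 of the 59 members. The Stat motif stood in 7.02% of all 32851 promoters and in those of 3 members, *Ccl17*, *Ccr6* and *Cxcl14*. The NF-kB motif stood in 4.94% of all promoters and in those of 11 members, *Ccl1*, *Ccl19*, *Ccl20*, *Ccr3*, *Ccr6*, *Ccrl2*, *Cxcl1*, *Cxcl2*, *Cxcl3*, *Cxcl9* and *Cxcl10*. The interferon motif stood in 2.98% of all promoters and in those of *Ccl19*, *Cxcl10* and *Cxcl14*. These are matches of letters and not measured binding sites. Each sequence runs 5′ to 3′ on the strand of its gene and ends 1 base before the start. Capitals mark the motifs. *Cxcl14* (chr13:56296552-56296801, minus strand) held a Stat match 191 to 183 bases and an interferon match 172 to 163 bases before its start. *Cxcl1* (chr5:90890995-90891244, plus strand), *Cxcl3* (chr5:90785851-90786100, plus strand) and *Cxcl2* (chr5:90903649-90903898, plus strand) held overlapping NF-kB matches on both strands within their last 100 bases. *Cxcl10* (chr5:92348890-92349139, minus strand) held an interferon match and, downstream of it, 2 NF-kB matches.
Cxcl14: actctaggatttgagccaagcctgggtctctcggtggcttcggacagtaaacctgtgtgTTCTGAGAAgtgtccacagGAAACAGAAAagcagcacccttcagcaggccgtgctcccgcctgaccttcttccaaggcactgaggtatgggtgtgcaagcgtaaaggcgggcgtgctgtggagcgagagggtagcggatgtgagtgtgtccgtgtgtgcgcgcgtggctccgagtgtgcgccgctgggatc
Cxcl1: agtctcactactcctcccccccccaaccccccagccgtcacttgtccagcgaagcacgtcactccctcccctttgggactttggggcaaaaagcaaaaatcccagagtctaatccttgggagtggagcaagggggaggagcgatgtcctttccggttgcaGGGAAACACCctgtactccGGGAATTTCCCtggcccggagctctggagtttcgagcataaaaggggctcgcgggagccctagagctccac
Cxcl3: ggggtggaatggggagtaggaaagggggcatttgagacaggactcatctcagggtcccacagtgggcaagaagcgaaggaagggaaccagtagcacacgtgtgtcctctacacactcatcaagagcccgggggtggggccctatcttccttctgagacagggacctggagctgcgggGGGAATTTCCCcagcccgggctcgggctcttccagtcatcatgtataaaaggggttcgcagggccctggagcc
Cxcl2: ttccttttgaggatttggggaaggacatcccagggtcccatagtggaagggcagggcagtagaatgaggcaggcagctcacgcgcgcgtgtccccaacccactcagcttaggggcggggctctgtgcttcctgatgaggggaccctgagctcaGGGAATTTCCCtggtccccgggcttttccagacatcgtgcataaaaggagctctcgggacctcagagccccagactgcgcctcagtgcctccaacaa
Cxcl10: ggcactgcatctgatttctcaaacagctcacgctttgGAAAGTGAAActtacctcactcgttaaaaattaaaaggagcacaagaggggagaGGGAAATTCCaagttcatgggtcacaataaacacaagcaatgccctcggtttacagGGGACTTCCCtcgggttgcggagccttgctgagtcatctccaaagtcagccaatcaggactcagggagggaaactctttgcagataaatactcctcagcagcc

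Total counts were 23850565 to 28460465 in the luminal libraries and 18996158 to 19638852 in the blastocyst libraries. Levels are given as raw read counts in the order control, eKO and eKO with rLif, or as counts scaled by TMM to a common library size of 1000000 (CPM), which is divided by exon length in kilobases wherever genes are compared with each other. A gene was called higher or lower when the exact 95% interval of the ratio of 2 libraries lay wholly beyond a 2-fold difference, a log2 ratio of 1. This interval covers counting error only. Against a library with 0 counts, a bound is given that sets this library at 3 counts, which is 0.104 to 0.119 CPM in the luminal layer and 0.153 to 0.157 CPM in blastocysts. Folds given below as "at least" are this bound. It takes the count of the other library without error, so it lies beyond the 95% limit of the ratio. For *Ccl22* in the luminal layer, eKO with rLif against eKO, the bound was a log2 ratio of −3.86 and the limit −3.50. The gap is wider at low counts. For *Ccr9* in the same comparison, with 10 counts in eKO, the bound was −1.60 and the limit −1.02. The targeted gene went against its label in the luminal layer, where *Lif* (chr11:4257568-4272514) had 0, 28 and 0 counts, which put the eKO-labelled library at least 8.20-fold above the control. The paper places *Lif* expression before attachment in the uterine glands. A luminal library is therefore a weak check of the genotype. Part of the gene lies outside the floxed stretch, and counts per gene do not show which exons were read. Whether the columns of the luminal libraries were exchanged cannot be told from the tables. If those of control and eKO were, each direction between them given here would turn, so the luminal libraries are named by their labels. In blastocysts, which carry their own *Lif* gene, it had 1447, 1736 and 1250 counts, which do not check the genotype of the mother. Epithelial keratin and adhesion genes were abundant in the luminal libraries (10 luminal epithelium markers summing to 9961 to 12103 CPM), and leukocyte genes were present too. The 7 general leukocyte markers summed to 280, 374 and 408 CPM. The 11 macrophage and monocyte markers summed to 2253, 2364 and 3044 CPM, most of it from *Cd14* and *Lyz2*, and to 472, 433 and 763 CPM without these 2, which were left out after their counts were seen. In blastocysts the same 10 luminal epithelium markers summed to 8320 to 8784 CPM, so this sum does not tell the tissues apart. Only 1 of them, *Wnt7a*, had 0 counts in blastocysts. Of 6 inner cell mass markers, 2 had 0 counts in the luminal libraries, the epiblast genes *Pou5f1* and *Nanog*. Another, *Klf4*, had 900, 520 and 783 counts in the luminal libraries.

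The chemokine genes were more abundant in the luminal layer than in blastocysts. In the luminal layer the 59 members summed to 1267, 689 and 1961 CPM, against 59.4, 71.8 and 33.2 CPM in blastocysts. Ligands made up most of the luminal sum, at 1165, 559 and 1876 CPM, with receptors at 101, 131 and 85.2 CPM. In blastocysts ligands summed to 25.0, 46.2 and 14.5 CPM and receptors to 34.5, 25.6 and 18.8 CPM, so that ligands had the larger share in the eKO library and receptors in the other two. Of the 51 members with a count in any library, 28 had a higher level per kilobase in every luminal library than in any blastocyst library. For 4 members, *Cxcr1*, *Cxcr2*, *Cxcl13* and *Ccl24*, every blastocyst library was above every luminal library. The tables of the tissues were scaled separately, so these levels were set side by side and not tested. Counts were found in the luminal libraries alone for 9 members, among them *Cxcl5*, *Ccl11*, *Ccl12*, *Cxcl9* and *Cxcr3*, and in the blastocyst libraries alone for 5. These numbers of members were not set beside the same numbers over all genes. They do not show whether chemokine genes differ from other genes in this. The other 8 members had 0 counts in all 6 libraries. Of these, *Ccl19*, *Ccl21a*, *Ccl21b*, *Ccl21c* and *Ccl27b* have near-identical copies and exons listed at several places, so that their reads may have been dropped in counting. The remaining *Ccr6*, *Cxcl11* and *Ccl26* were not detectable at this depth.

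**Figure D1:**
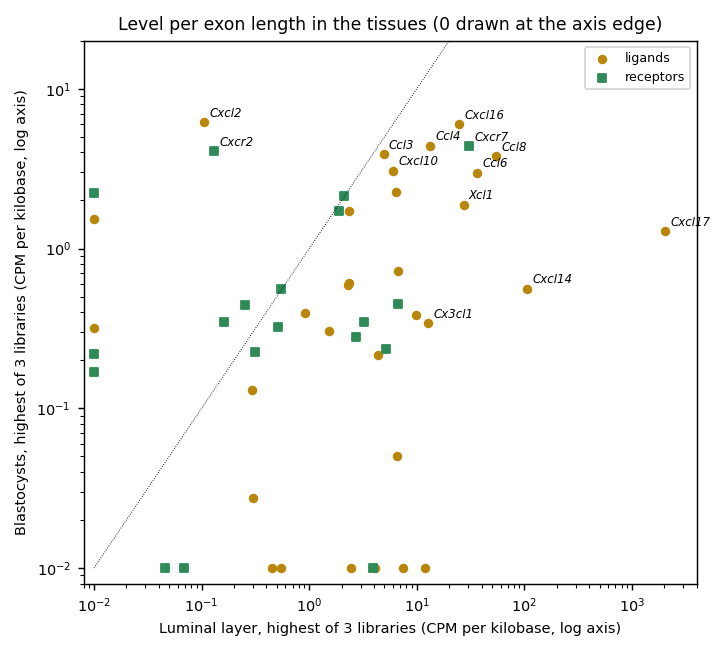
Highest level of each detected and reported member among the 3 luminal libraries (horizontal axis) against the highest among the 3 blastocyst libraries (vertical axis), both in CPM per kilobase of exon on log axes, with ligands as circles and receptors as squares. Most points lie to the right of the dotted line of equal level, with *Cxcl17* farthest right at 2010, while *Cxcl2* and *Cxcr2* lie above the line.

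*Cxcl17* (chr7:25400053-25412886), a mucosal ligand that attracts monocytes and dendritic cells, was the most abundant chemokine of the luminal layer. It held 58.5%, 51.3% and 77.9% of all member counts in the control, eKO and eKO with rLif libraries. Per kilobase it stood at 976, 465 and 2010 CPM. The next highest member in the control library was *Cxcl14* at 105 CPM per kilobase, followed by *Cxcl16* at 24.8, *Xcl1* at 20.4 and *Cxcr7* at 15.1. In the eKO-labelled library the order below *Cxcl17* was *Ccl6* at 36.5, *Cxcr7* at 30.4, *Xcl1* at 27.2 and *Cxcl14* at 16.7. In the eKO library with rLif it was *Cxcl14* at 78.0 and *Ccl8* at 55.0. Without *Cxcl17*, the members summed to 525, 335 and 434 CPM, so that the highest library changed from eKO with rLif to control.

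**Figure D2:**
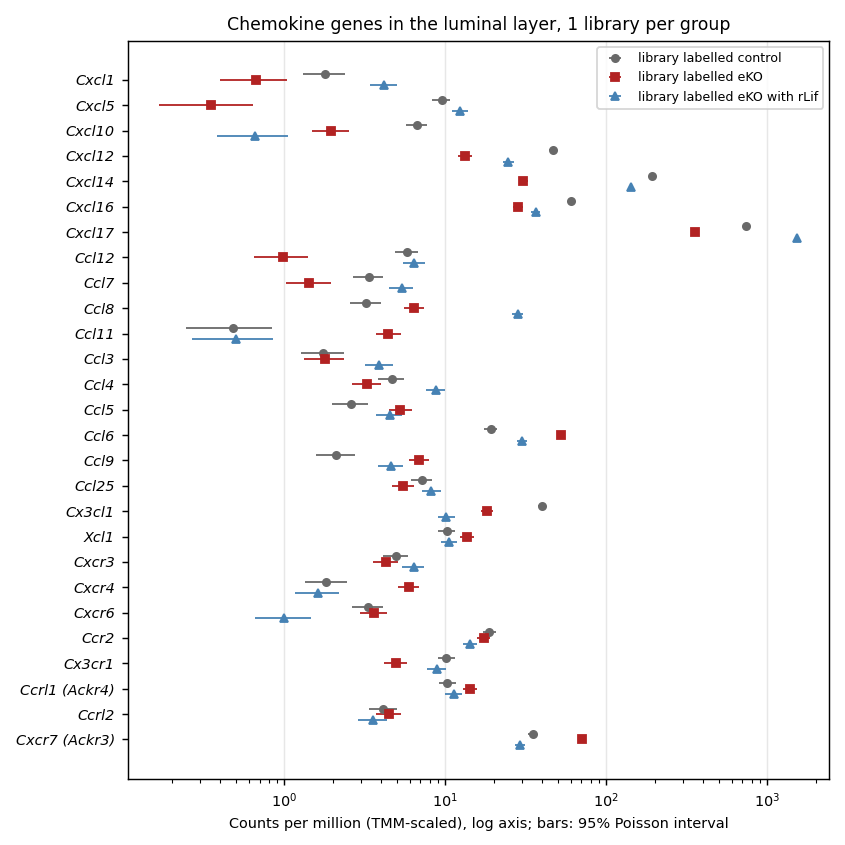
Level of 27 members with at least 100 counts in a luminal library, in TMM-scaled CPM on a log axis, ordered by role from ELR ligands at the top to atypical receptors at the bottom. Points are single libraries and bars are 95% Poisson intervals; *Cxcl5*, *Cxcl14* and *Ccl12* have the eKO square well to the left of both other symbols, and *Ccl11*, *Ccl6* and *Cxcr4* have it to the right.

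Of the 59 members, 42 had at least 10 counts over the luminal libraries and were compared, 4 had fewer counts (*Ccl20*, *Ccr10*, *Cxcl2* and *Ccr8*) and 13 had none. Between the eKO-labelled library and the control, 5 members were called higher and 10 lower, which is 11.9% and 23.8% of those compared. Over all 15694 genes, 8.08% were called higher and 9.15% lower. The median log2 ratio was −0.35 over the members and 0.01 over all genes. Between the eKO library with rLif and the eKO-labelled library, 9 members were called higher and 7 lower, or 21.4% and 16.7%, where all genes gave 7.88% and 7.77%. The medians were −0.28 and −0.01. Between the eKO library with rLif and the control, 2 members were called higher and 7 lower, or 4.76% and 16.7%, where all genes gave 4.12% and 5.04%. The medians were −0.04 and 0.01. All 3 comparisons share libraries, so their calls are not independent of each other. Fewer calls remained by the edgeR exact test with an assumed dispersion of 0.1, which allows for a spread between animals that was not measured. For eKO against control it lost *Cxcl17*, *Cxcl12*, *Cxcl10*, *Cxcl3*, *Ccl6*, *Ccl9*, *Cxcr4* and *Cxcr2*. For eKO with rLif against eKO it lost *Ccl4*, *Ccl7*, *Ccr9*, *Cxcr4*, *Cxcr6* and *Cxcr7*, and against the control *Cxcl17*, *Cx3cl1*, *Ccl17* and *Cxcr6*. Among the 7378 rarer genes with 10 to 1000 counts, the shares called in the first comparison were 10.5% higher and 10.4% lower, and the 34 members in that range gave 4 higher and 7 lower.

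**Figure D3:**
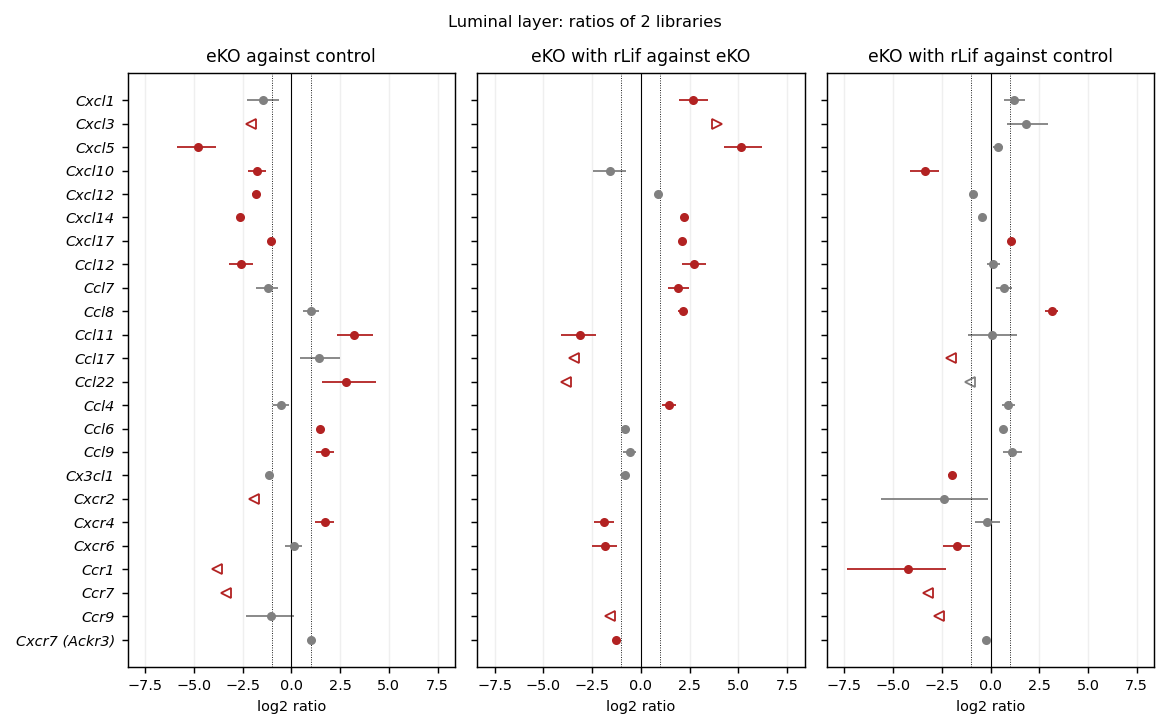
Log2 ratio of 2 luminal libraries for the members called in at least 1 of the 3 comparisons, with exact 95% intervals; red marks a call, grey no call, and open triangles are bounds against a library with 0 counts. Dotted lines mark a 2-fold difference. Most ligands at the top lie to the left in the first panel and to the right in the second.

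The ELR ligands among the members, which attract neutrophils, were low in the eKO-labelled library. Of the 3 compared, 2 were called lower there than in the control, and all 3 higher with rLif than without. Over all genes, 9.15% were called lower in the first case and 7.88% higher in the second. *Cxcl5* (chr5:90759299-90761625) had 239, 10 and 321 counts. Its log2 ratio of eKO against control was −4.76 (interval −5.84 to −3.86), and that of eKO with rLif against eKO was 5.15 (4.25 to 6.22). The control and the rLif library differed by less than 2-fold, with a log2 ratio of 0.38. *Cxcl3* had 11, 0 and 40 counts. The eKO-labelled library was thus at least 4.17-fold below the control and at least 14.7-fold below the rLif library. *Cxcl1* had 45, 19 and 108 counts. It was called higher with rLif than without (log2 ratio 2.65, interval 1.94 to 3.44), while its ratio of eKO against control, −1.43 (−2.29 to −0.63), was not called. *Cxcl2* had 1, 0 and 3 counts, too few for a comparison. The ELR ligand *Ppbp*, which the rule for members did not reach, had 4, 11 and 7 counts and was not called. *Cxcl3* and *Cxcl1* are 2 of the genes shown above with NF-kB matches close to the start, and no promoter entry was found for *Cxcl5*. *Cxcl9* and *Cxcl10*, which also hold an NF-kB match, were not called higher with rLif than without. The receptor of the ELR ligands, *Cxcr2*, had 10, 0 and 2 counts, with the eKO-labelled library at least 3.79-fold below the control. Among 7 neutrophil and eosinophil markers the sums were 6.89, 3.59 and 2.38 CPM in the luminal libraries.

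*Cxcl14* and *Cxcl12*, ligands made by epithelium and stroma, were also lower in the eKO-labelled library. *Cxcl14* (chr13:56288643-56296551), an epithelial chemokine that attracts monocytes and NK cells, had 4847, 878 and 3711 counts. Its log2 ratio was −2.65 (interval −2.76 to −2.55) for eKO against control and 2.22 (2.11 to 2.33) for rLif against eKO. *Cxcl12*, the ligand of CXCR4, had 1179, 379 and 640 counts, with a log2 ratio of −1.82 (−1.99 to −1.66) for eKO against control. The rLif library lay between the other 2 for both genes. *Cxcl17* had 18719, 10157 and 39766 counts. It was called lower in the eKO-labelled library (−1.07, −1.10 to −1.03), and higher with rLif than in eKO (2.11, 2.08 to 2.14) and than in the control (1.04, 1.02 to 1.07). The last of these calls was lost under other scalings of the libraries, where the log2 ratio was 0.87 by total counts and 0.90 without the 20 most abundant genes. *Cxcl16*, a membrane-bound ligand of CXCR6, had 1532, 810 and 947 counts and was not called (−1.11, −1.23 to −0.98, for eKO against control). Its exons overlap those of *Zmynd15*, so its reads are uncertain. *Cxcl13* had 0 counts in the luminal layer.

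Interferon-inducible *Cxcl10* had 167, 56 and 17 counts, highest in the control and lowest with rLif. It was called lower in the eKO-labelled library (−1.76, −2.23 to −1.32) and in the rLif library (−3.34, −4.15 to −2.62) than in the control. *Cxcl9*, of the same class, had 33, 30 and 17 counts and was not called. Their receptor *Cxcr3* had 124, 123 and 165 counts. *Cx3cl1*, a membrane-anchored ligand that attracts CX3CR1-bearing monocytes, followed the order of *Cxcl10* with 1005, 519 and 264 counts. It was called lower in the rLif library than in the control (−1.97, −2.17 to −1.78), and its ratio of eKO against control, −1.14 (−1.29 to −0.98), fell just short of a call. Its receptor *Cx3cr1* had 256, 141 and 230 counts and was not called. *Xcl1*, a ligand made by T and NK cells, had 258, 392 and 275 counts, and its receptor *Xcr1*, of cross-presenting dendritic cells, had 35, 20 and 26. Neither was called.

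The CC ligands that attract monocytes stand side by side on chromosome 11 and did not move alike. *Ccl12* had 146, 28 and 166 counts, with a log2 ratio of −2.57 (−3.21 to −1.98) for eKO against control and 2.71 (2.13 to 3.34) for rLif against eKO. *Ccl7* had 84, 41 and 139 counts and was called only for rLif against eKO (1.90, 1.39 to 2.44). *Ccl8* (chr11:82115185-82116799) had 81, 184 and 732 counts, highest with rLif, at a log2 ratio of 3.13 (2.80 to 3.48) against the control and 2.13 (1.90 to 2.37) against eKO. *Ccl2* had 48, 32 and 43 counts and was not called. Where 7.88% of all genes were called higher with rLif than without, 3 of these 4 ligands were. Beside them, 0 of 11 macrophage and monocyte markers were called between these 2 libraries, with a median log2 ratio of 0.74, and their summed level was 2364 CPM without and 3044 CPM with rLif (433 and 763 CPM without *Cd14* and *Lyz2*). The part of these cells in the result was not tested. In bulk tissue, fewer cells of a type and less RNA per cell cannot be told apart.

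*Ccl11* (chr11:82057832-82062955), which attracts eosinophils and lies between *Ccl7* and *Ccl12*, had the opposite pattern. Its counts were 12, 127 and 13, with a log2 ratio of 3.22 (2.36 to 4.21) for eKO against control and −3.15 (−4.10 to −2.32) for rLif against eKO. *Ccl22* and *Ccl17*, ligands of CCR4 made by dendritic cells and macrophages, had 6, 48 and 0 and 12, 36 and 0 counts. *Ccl22* was called higher in the eKO-labelled library than in the control (2.81, 1.59 to 4.33). Against the eKO-labelled library, the rLif library was at least 14.5-fold lower for *Ccl22* and at least 10.9-fold lower for *Ccl17*, which was also at least 4.13-fold lower than in the control. *Ccl6* had 483, 1505 and 784 counts (1.45, 1.30 to 1.60, for eKO against control) and *Ccl9* had 53, 197 and 119 (1.71, 1.26 to 2.17). Both are myeloid ligands of rodents. Of the 9 compared members of the class of other inflammatory CC ligands, 4 were called higher in the eKO-labelled library than in the control and 0 lower. Over all genes these shares were 8.08% and 9.15%. At the same time 10 stroma markers summed to 857, 1304 and 887 CPM, with 1 of them, *Col3a1*, called higher in the eKO-labelled library than in the control. Their part in the result was not tested. The 7 dendritic cell markers, among them the members *Ccr7* and *Xcr1*, summed to 11.4, 16.2 and 6.68 CPM. Without *Zbtb46*, left out after its counts of 79, 267 and 62 were seen, the other 6 summed to 8.28, 6.89 and 4.3 CPM and were highest in the control.

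*Ccl3* and *Ccl4*, ligands made by activated myeloid and lymphoid cells, had 44, 51 and 101 and 117, 93 and 226 counts. *Ccl4* was called for rLif against eKO (1.42, 1.07 to 1.79) under TMM scaling, and the call was lost at 1.31 by total counts and 1.30 without the 20 most abundant genes. *Ccl5*, a ligand made by T and NK cells, had 65, 151 and 117 counts and was not called (1.03, 0.60 to 1.47, for eKO against control). *Ccl1* had 0, 8 and 3 counts. Of the 9 homeostatic and mucosal CC ligands, *Ccl25* had 180, 157 and 213 counts, *Ccl27a* 32, 99 and 60, and *Ccl28* 11, 32 and 16. None of these 3 was called. *Ccl27a* shares exons with *Il11ra1* and is uncertain.

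The receptors, atypical ones included, differed less in sum than the ligands did. Of these sums *Cxcr7* alone gave 34.9, 70.6 and 29.3 CPM, and *Cxcl17* gave 741, 354 and 1527 CPM. *Cxcr4*, the receptor of CXCL12, had 46, 170 and 42 counts, a log2 ratio of 1.70 (1.22 to 2.20) for eKO against control and −1.88 (−2.40 to −1.38) for rLif against eKO. Its ligand *Cxcl12* was thus lowest in the library in which *Cxcr4* was highest. *Cxcr7* (*Ackr3*, chr1:90203980-90215722), an atypical receptor that removes CXCL12, was the most abundant receptor in each luminal library, with 882, 2027 and 762 counts. It was called lower with rLif than in eKO (−1.27, −1.39 to −1.15), and its ratio of 1.01 (0.90 to 1.13) for eKO against control was not called. *Cxcr6*, the receptor of CXCL16 on T and NK cells, had 83, 103 and 26 counts. It was called lower in the rLif library than in the control (−1.72, −2.41 to −1.07) and than in eKO (−1.84, −2.52 to −1.21). The 10 T and NK cell markers summed to 114, 108 and 109 CPM.

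Calls among the CC receptors were all lower, and rested on few counts. *Ccr1* had 37, 0 and 2 counts. The eKO-labelled library was at least 14.0-fold below the control, and the rLif library stood at a log2 ratio of −4.25 (−7.35 to −2.30). *Ccr7*, which guides dendritic cells to lymph nodes, had 27, 0 and 0 counts, a drop of at least 10.2-fold and 9.28-fold. *Ccr9* had 18, 10 and 0 counts, and the rLif library was at least 6.19-fold below the control and 3.02-fold below eKO. The more abundant *Ccr2*, the receptor of CCL2, CCL7 and CCL12 on monocytes, had 473, 496 and 370 counts and was not called in a comparison. *Cxcr5* had 6, 19 and 6 counts. The other atypical receptors, *Ccrl1* (*Ackr4*) with 260, 408 and 293 counts and *Ccrl2* with 104, 128 and 92, were not called. *Ccrl1* shares exons with *Acad11* and is uncertain.

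Inducers of chemokine transcription and genes of chemokine signalling were read beside the members. The list of 19 inducers also holds the NF-kB inhibitors *Nfkbia* and *Tnfaip3*, so its counts of calls mix both kinds. Over all genes, 8.08% were called higher and 9.15% lower for eKO against control. With rLif these shares were 7.88% and 7.77% against eKO, and 4.12% and 5.04% against the control. The lists were not tested as sets. Of 19 inducers, 1 was called higher and 5 lower in the eKO-labelled library than in the control. The cytokine gene *Il1a* had 585, 6 and 984 counts, *Tnf* 44, 8 and 15, and its receptor *Tnfrsf1a* 1705, 609 and 1522. The NF-kB subunit gene *Rela* had 4267, 2029 and 3184 counts, and the bacterial lipoprotein receptor *Tlr2* had 356, 121 and 207. The interleukin-1 receptor gene *Il1r1*, with 515, 1502 and 749 counts, was the 1 called higher. With rLif against eKO, 5 inducers were called higher, among them *Il1a*, *Il1b* (138, 105 and 434 counts) and the NF-kB inhibitor *Nfkbia* (12198, 12679 and 26833), and *Ifngr2* (3847, 8378 and 2251) was called lower. With rLif against the control, 2 were called higher (*Nfkbia* and *Il1b*) and 1 lower (*Tnfaip3*, at 161, 101 and 58 counts). Of 18 genes that transmit or handle chemokine signals, *Rgs16*, a brake on G protein signalling, had 30, 486 and 30 counts and was the 1 called higher in the eKO-labelled library than in the control. *Dpp4*, a protease that trims chemokines, had 1374, 930 and 278 counts and was called lower in the rLif library than in either other library. The other calls in this list were *Darc* (*Ackr1*), higher in the rLif library than in the control at 0, 4 and 11 counts, and *Rgs16*, lower with rLif than in eKO.

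In blastocysts 37 members had at least 10 counts over the 3 libraries, 5 had fewer (*Ccl20*, *Ccl5*, *Ccl28*, *Cxcl3* and *Cxcl1*) and 17 had none. Counts were low: 4 members reached 100 counts in a library and 0 reached 1000. Between the blastocysts of *Lif* eKO mothers and of control mothers, 7 members were called higher and 5 lower, or 18.9% and 13.5% of those compared, where all 14873 genes gave 1.29% and 1.86%. The median log2 ratio was 0.26 over the members. Between blastocysts of eKO mothers with rLif and those of eKO mothers, 0 were called higher and 10 lower, or 27.0%, where all genes gave 0.914% and 2.83%. The median was −0.99. Between blastocysts of eKO mothers with rLif and the control, 2 were called higher and 9 lower, or 5.41% and 24.3%, where all genes gave 0.948% and 3.99%. The median was −1.0. Over all genes these medians lay between −0.01 and 0. Rarer genes were called more often. Among the 7259 with 10 to 1000 counts, to which all 37 members belong, 2.6% and 3.58% were called higher and lower in the first comparison, 1.69% and 5.15% in the second and 1.8% and 6.96% in the third. The same edgeR test lost *Ccl3*, *Ccl4*, *Ccr3*, *Ccr4*, *Ccrl2*, *Cxcr5* and *Xcl1* in the first comparison and *Ccl4*, *Ccr3*, *Cx3cl1* and *Xcr1* in the second. In the third it lost *Ccl7*, *Ccl22*, *Cx3cr1*, *Cxcl17*, *Cxcr2*, *Cxcr4* and *Cxcr5*.

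**Figure D4:**
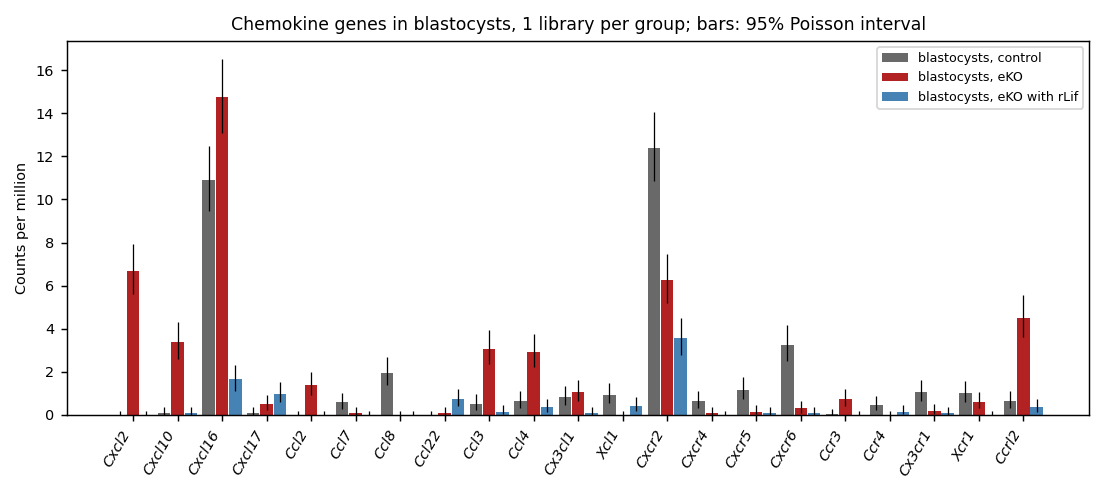
Level of the members called in at least 1 blastocyst comparison, in CPM on a linear axis from 0, with a bar for each library and its 95% Poisson interval. *Cxcl2*, *Cxcl10*, *Ccl2*, *Ccl3*, *Ccl4* and *Ccrl2* have a high bar in the eKO library alone, and *Cxcr2*, *Cxcr6* and *Ccl8* are highest in the control library.

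In blastocysts, 5 inflammatory ligands, *Cxcl2*, *Cxcl10*, *Ccl2*, *Ccl3* and *Ccl4*, had most of their counts in the library of *Lif* eKO mothers. Others of their classes did not, among them *Ccl6*, *Ccl7*, *Ccl8* and *Ccl22*, whose counts are given further on. *Cxcl2*, an ELR ligand, had 0, 131 and 0 counts, which put the eKO library at least 42.6-fold above the control and 43.4-fold above the rLif library. *Cxcl10* had 2, 66 and 2 counts, with a log2 ratio of 5.01 (interval 3.10 to 8.08) and, with rLif, of −5.04 (−8.11 to −3.13). *Ccl2* had 0, 27 and 0 counts, with eKO at least 8.78-fold above the control and 8.95-fold above rLif. *Ccl3* had 10, 60 and 3 counts (2.55, 1.57 to 3.68, and −4.31, −6.63 to −2.70), and *Ccl4* had 12, 57 and 7 (2.21, 1.30 to 3.25, and −3.02, −4.40 to −1.88). The related *Cxcl3* and *Cxcl1*, below the limit for a comparison, had 0, 6 and 0 and 0, 4 and 0 counts. Of the promoters shown above, those of *Cxcl1*, *Cxcl2*, *Cxcl3* and *Cxcl10* hold NF-kB matches, and no entry was found for *Ccl2*. *Ccl3* and *Ccl4* were not among the 11 members with an NF-kB match, and the part of NF-kB was not tested. Per kilobase, *Cxcl2* (6.19 CPM) and *Cxcl16* (6.02 CPM) were the most abundant members of the eKO library. In the control library *Cxcl16* (4.46 CPM, interval 3.87 to 5.11) and *Cxcr2* (4.07, 3.57 to 4.62) led, with intervals that overlap, and in the rLif library *Cxcr7* did, at 4.37 CPM.

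The atypical receptor *Ccrl2*, which myeloid cells express on activation, also had most of its counts in the eKO library. It had 12, 88 and 7 counts, a log2 ratio of 2.84 (1.96 to 3.84) for eKO against control and −3.64 (−5.00 to −2.54) for rLif against eKO. *Ccr3*, the eosinophil receptor of CCL11, had 1, 14 and 0 counts (3.77, 1.05 to 9.17), at least 4.64-fold lower with rLif. Macrophage and monocyte markers were also highest in sum in the eKO library, at 75.3, 156 and 32.4 CPM, and at 22.5, 36.7 and 11.8 CPM without *Cd14* and *Lyz2*. Of these 11 markers, *Cd14* (30, 196 and 111 counts) and *Fcgr1* (0, 13 and 9) were called higher in eKO than in the control, and 6 were called lower with rLif than in eKO, among them *Lyz2* (976, 2128 and 289) and *Csf1r* (31, 68 and 10). Against this, *C1qa* (104, 97 and 34) and *Mrc1* (15, 2 and 7) had fewer counts in eKO than in the control and were not called there. The general leukocyte markers summed to 21.6, 20.7 and 12.4 CPM, with *Cd52* (48, 12 and 19 counts) called lower in eKO than in the control. The inducers *Tnf* (0, 42 and 0 counts), *Il1b* (32, 222 and 12) and *Tlr2* (36, 153 and 92) were the 3 of 18 called higher in eKO than in the control, and 0 were called lower. With rLif against eKO, 3 genes of this list were called lower, *Tnf*, *Il1b* and the inhibitor *Tnfaip3* (36, 92 and 4 counts). With rLif against the control 4 were, *Il1a*, *Tlr4* and the inhibitors *Nfkbia* (411, 216 and 105 counts) and *Tnfaip3*. Over all genes, 1.29% were called higher and 1.86% lower in eKO than in the control. With rLif these shares were 0.914% and 2.83% against eKO, and 0.948% and 3.99% against the control. Flushed blastocysts can carry maternal cells along. The part of such cells in the ligand counts was not tested.

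**Figure D5:**
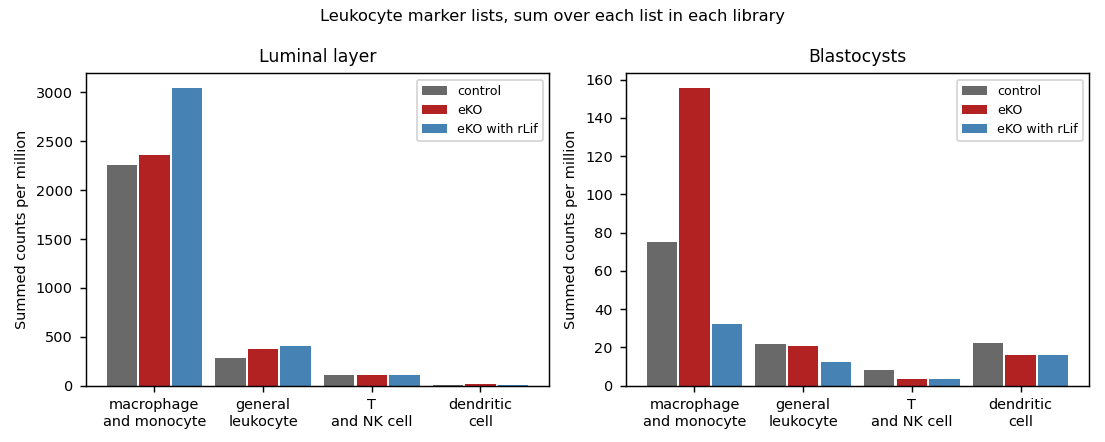
Summed CPM of 4 leukocyte marker lists in each luminal (left) and blastocyst (right) library, on linear axes from 0 that differ in scale. In blastocysts the macrophage and monocyte bar is highest in the eKO library at 156 CPM, against 75.3 in the control and 32.4 with rLif, and in the luminal layer it is highest with rLif at 3044 CPM.

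Other members were highest in the blastocysts of control mothers. *Cxcr6* had 62, 6 and 2 counts, at log2 ratios of −3.41 (−4.91 to −2.20) for eKO and −4.98 (−8.06 to −3.07) for eKO with rLif against the control. *Ccl8* had 37, 0 and 0 counts, so that both eKO libraries were at least 12.6-fold below the control. *Xcl1* had 18, 0 and 8 counts, with eKO at least 6.15-fold below the control. The B cell receptor gene for CXCL13, *Cxcr5*, had 22, 3 and 2 counts (−2.91, −5.29 to −1.18, and −3.49, −6.62 to −1.46), and *Ccr4* had 9, 0 and 3, at least 3.08-fold lower in eKO. The T and NK cell markers summed to 7.97, 3.43 and 3.34 CPM, again highest in the control. With rLif against eKO, 1 of them, *Cd3d* (5, 0 and 18 counts), was called higher and 1, *Gzma* (17, 14 and 1), lower. The B cell markers summed to 15.9, 20.0 and 12.1 CPM and were highest in eKO, unlike *Cxcr5*. The part of these cells was not tested.

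The rLif library had the lowest counts of several further members, some of which were low in the eKO library too. *Cxcl16* had 208, 288 and 32 counts, at a log2 ratio of −2.73 (−3.31 to −2.19) against the control and −3.16 (−3.74 to −2.63) against eKO. Its exon overlap with *Zmynd15* leaves these reads uncertain, as in the luminal layer. *Cxcr2*, the receptor of the ELR ligands, had 236, 122 and 69 counts and was called lower with rLif than in the control (−1.80, −2.21 to −1.41). Its neighbour *Cxcr1* had 21, 49 and 17 counts and was not called. *Xcr1* had 19, 12 and 0 counts, and the rLif library was at least 6.46-fold below the control and 3.98-fold below eKO. *Cx3cl1* had 16, 21 and 2 counts (−3.38, −6.52 to −1.35, against eKO) and its receptor *Cx3cr1* 20, 4 and 2 (−3.35, −6.49 to −1.31, against the control). *Cxcr4* with 12, 2 and 0 counts and *Ccl7* with 11, 2 and 0 were at least 4.08-fold and 3.74-fold lower than in the control. Over all genes, 2.83% were called lower with rLif than in eKO and 3.99% than in the control. Of the signalling genes, 3 of 15 were called lower with rLif than in eKO and 3 than in the control. These were *Elmo1* (298, 439 and 120 counts), *Rac2* (52, 75 and 8) and *Pik3cg* (16, 12 and 0), which act in leukocyte migration, and the platelet chemokine *Ppbp* (4, 24 and 8) was the 1 called higher in eKO than in the control.

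Only *Cxcl17* and *Ccl22* were called higher with rLif in a blastocyst comparison, both against the control. *Cxcl17*, the leading luminal ligand, had 2, 10 and 19 counts (3.22, 1.17 to 6.37), and *Ccl22* had 0, 2 and 14, at least 4.58-fold higher. *Cxcr7*, the most abundant receptor in the rLif library, had 152, 110 and 197 counts and was not called. The remaining compared members of blastocysts were not called and had 84 counts or fewer in each library. Among them *Ccl6* had 47, 84 and 53 counts, *Ccl25* 47, 27 and 56, *Cxcl13* 12, 35 and 28, *Ccl9* 11, 35 and 24, and *Ccr9* 6, 30 and 12. *Cxcl14* had 15, 20 and 16 counts, *Cxcl12* 6, 7 and 7, *Ccl24* 2, 8 and 2, and *Ccl27a* 17, 10 and 5. None was called. The receptors *Ccr1* with 14, 18 and 11 counts, *Ccr2* with 16, 6 and 7, *Ccr7* with 21, 12 and 6 and *Ccrl1* with 18, 11 and 12 were not called either.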

How the data were processed

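The data were RNA-seq libraries of the uterine luminal layer, taken by laser microdissection, and of blastocysts flushed from the uterus, 1 pooled library for each of 6 groups, grouped by the sample labels. The authors made libraries with a SMART-seq v4 kit made for small amounts of RNA. They aligned the read pairs to GRCm38/mm10 with HISAT2 and counted them per gene with featureCounts (Subread 2.0.0). The deposited values were whole-number counts per gene, with the summed exon length, in 1 table per tissue. The methods call the output RPKM, but the deposited columns were unnormalized counts. The annotation release, strand setting and handling of reads with several matches are not given in the sources used here. The SMART-seq v4 kit adds no molecular identifiers, so reads copied from 1 molecule are counted apart. The intervals therefore cover counting error of reads only and can be too narrow for molecules.

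TMM scaling of the libraries was done within each tissue in edgeR 4.0.16 under R 4.3.3. Genes with at least 10 counts over the 3 libraries of a tissue were compared. A gene was called when the exact 95% Clopper-Pearson interval of the ratio of 2 libraries lay wholly beyond a log2 ratio of 1. A library with 0 counts was set at 3 counts for bounds. The step was tested on simulated Poisson counts, which hold neither copied reads nor a spread between animals. Alternatives were scaling by total counts, by DESeq2 1.42.0 size factors or without the 20 most abundant genes, other minimums and limits, the edgeR exact test with an assumed dispersion of 0.1, leaving out members with overlapping exons, and TPM for levels. Levels per kilobase used the deposited exon length. Gene positions were those of the deposited tables, and gene types came from GENCODE M21 of the same build, in which 58 of the 59 members were found. Promoters were taken from RefSeq by symbol. The members and the lists of roles, pathways and markers were chosen with earlier results of these data known. Every member with at least 10 counts in a tissue was to be given with its counts, in full with at least 100 counts in a library or a call. Of the lists, genes called with at least 100 counts, and markers needed to check the tissue, were to be named, and a few genes below that were named after their values were seen. The values of 1 member, which enter the sums and counts over all members, are not reported here.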

Additional observations from a re-analysis of the deposited data

Results flagged for a closer look

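For 3 members the same contrast went opposite ways in the tissues. *Cxcl10* stood, for eKO against control, at a log2 ratio of −1.76 in the luminal libraries and 5.01 in blastocysts. *Ccl8* had a log2 ratio of 3.13 for eKO with rLif against control in the luminal layer and of −3.65 in blastocysts, where both eKO libraries had 0 counts and were set at 3 counts. *Ccl4* had a log2 ratio of 1.42 for eKO with rLif against eKO in the luminal layer and of −3.02 in blastocysts. The luminal call of *Ccl4* was lost by total counts and without the 20 most abundant genes. By the edgeR exact test both of its calls were lost, and so was the luminal call of *Cxcl10*. With 1 library per group the difference between the tissues was not tested.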

How the results depend on the processing

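No called member turned direction under the 9 alternatives tried in each comparison. The counts of called members moved by over 1.5 times where the rule itself was changed. With a log2 limit of 0 in place of 1, they were 35, 28 and 32 in the luminal layer (eKO against control, eKO with rLif against control, eKO with rLif against eKO) and 26, 17 and 18 in blastocysts. With a limit of 2 they were 5, 5 and 8, and 6, 4 and 6. By the edgeR exact test with an assumed dispersion of 0.1 they were 7, 5 and 10, and 5, 4 and 6. With a minimum of 50 counts, which leaves fewer genes to compare, they were 5 for eKO with rLif against control in the luminal layer and 6, 3 and 6 in blastocysts. The counts by the rule as reported were 15, 9 and 16, and 12, 11 and 10. Scaling by total counts called *Cxcl16* (−1.17) and *Cx3cl1* (−1.21) lower in the eKO-labelled luminal library, and leaving out the 20 most abundant genes called *Cx3cl1* (−1.16). Total counts moved the median of all genes by −0.18 for eKO with rLif against control and by −0.11 against eKO. No paired analysis was possible because each group is 1 library. Most blastocyst members had under 100 counts, so that differences of 2-fold were often not detectable.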
